A study of Mus musculus with 6 samples.

Results

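The miRNAs of the miR-26 and miR-148/miR-152 families were examined in epididymal white adipose tissue (WAT) of wild type (Wt) mice and of transgenic mice overexpressing angiotensinogen (Agt Tg). Members were chosen by name, as every row of the deposited table for miR-26a, miR-26b, miR-148a, miR-148b or miR-152, in each strand listed. This gave 10 of the 1983 rows. Of these, 8 were above the lowest value that the table can show in 3 or more of the 6 libraries and are described here, 3 from the miR-26 and 5 from the miR-148/miR-152 family. The same filter left 329 rows in the whole table, over which tests were run.

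The 6 libraries came from 3 Wt and 3 Agt Tg mice, each library taken as 1 mouse from its own identifier in the labels, all male and all C57BL6/J. In Agt Tg mice the gene of angiotensinogen, the precursor of angiotensin II, is driven in fat by the aP2 (Fabp4) promoter, which is known to be active in adipocytes and also in macrophages. Small RNA libraries do not measure the Agt transcript, so the transgene could not be checked here. The labels give a chow diet and the methods of the study a low fat diet for mice of both genotypes, and an age was not found in either. Whole WAT holds adipocytes together with vascular, blood and stromal cells, and fewer cells of a type cannot be told apart from less of a miRNA per cell.

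A miRNA is cut from a hairpin, of which the guide strand is loaded into an Argonaute protein and the other strand, the passenger, is mostly discarded. The guide pairs with mRNAs mainly through its seed, bases 2 to 8, so that miRNAs with the same seed can share targets. miR-26a and miR-26b lie within the genes of the small C-terminal domain phosphatases (Ctdspl, Ctdsp2 and Ctdsp1). They have been reported to act on the differentiation of adipocytes, and the direction in mouse WAT is not taken as settled here. miR-148a is known for promoting adipogenesis and for repressing Wnt ligands, which hold back adipocyte differentiation, and the miR-148/miR-152 family is known for targeting the DNA methyltransferase Dnmt1.

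The mature mouse guide strands are printed first because they show which members share a seed. They are RefSeq sequences of GRCm38.p6, 5′ to 3′, and the capitals mark the seed.
miR-26a-5p: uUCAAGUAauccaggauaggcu
miR-26b-5p: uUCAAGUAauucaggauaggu
miR-148a-3p: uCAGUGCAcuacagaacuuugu
miR-148b-3p: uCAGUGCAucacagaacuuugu
miR-152-3p: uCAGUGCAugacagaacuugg

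Counted from 1 at the 5′ end, with the first-named miRNA's base first, miR-26a-5p and miR-26b-5p differed by C11U and C21U over 21 bases. miR-148a-3p differed from miR-148b-3p by C9U and U10C, and from miR-152-3p by C9U, U10G and U20G. None of these substitutions lies in the seed. Among 1679 mature mouse miRNAs of the RefSeq table, the seed UCAAGUA was found in 2 (miR-26a-5p and miR-26b-5p) and the seed CAGUGCA in 3 (miR-148a-3p, miR-148b-3p and miR-152-3p), so the 5 guide strands make up both seed groups. The human miR-1297 and miR-4465, which are annotated with the miR-26 seed, were at the lowest value of the table in all 6 libraries.

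The guide of miR-26a is encoded by 2 genes, at chr9:119031811-119031832 (Mir26a-1, plus strand) and at chr10:126995543-126995564 (Mir26a-2, plus strand). Mir26a-1 lies in an intron of Ctdspl, and the hairpin of Mir26a-2 lies within Ctdsp2, where 1 of its bases overlaps an annotated exon (GENCODE M21, GRCm38). The miR-26b guide is at chr1:74394324-74394344 (plus strand), in an intron of Ctdsp1. The miR-148b guide is at chr15:103285185-103285206 (plus strand), in an intron of Copz1, and the miR-152 guide at chr11:96850439-96850459 (plus strand), in an intron of Copz2. Copz1 and Copz2 encode zeta subunits of the coatomer, the coat of transport vesicles. The miR-148a guide is at chr6:51269829-51269850 (minus strand), outside any annotated gene, and the nearest protein-coding gene, Nfe2l3, is 162760 bases away. All 5 hairpins within genes are on the strand of their host.

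The values of the table are reads per 10000000 of each library, on a log2 scale, and nothing is listed below 10, which is called the floor (3.32 on the log2 scale). Library totals lay between 6387766 and 10562634 reads, so that the floor stood for 6.39 to 10.6 reads. One library stood apart. In Wt replicate 2, 12 rows lay more than 2 log2 units above every other library, against 0 in each of the others, and 10 markers of epididymis and epithelium summed to 13857 CPM (reads per 1000000) there compared to between 104 and 173 elsewhere. Of 5 miRNAs enriched in adipocytes, 3 were tested, led by miR-378a-3p at a mean log2 value of 15.74, and miR-193b-3p and miR-455-3p were at the floor in all libraries. All rows carry human names, and a mouse strand whose bases differ from the human one need not have been matched, so a row at the floor is not shown to be absent from the tissue.

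miR-26a-5p was the most abundant of the members, with between 148958 and 291824 reads per library. It took 3.96% to 5.04% of the reads on listed miRNAs and its mean level ranked 6 among all rows, where miR-10b-5p ranked 1. miR-148a-3p ranked 19 and took 0.903% to 1.75% of those reads, and miR-26b-5p ranked 43. The 5 guide strands together held 5.18% to 7.11% of the reads on listed miRNAs. Over the 6 libraries the mean log2 values were 17.84 ± 0.13 for miR-26a-5p, 16 ± 0.30 for miR-148a-3p, 13.69 ± 0.33 for miR-26b-5p, 10.20 ± 0.23 for miR-148a-5p, 8.71 ± 0.17 for miR-148b-3p, 8.41 ± 0.18 for miR-152, 6.84 ± 0.12 for miR-26b-3p and 6.42 ± 0.25 for miR-148b-5p (SD, n = 6). The mature sequences of these strands have 21 to 24 bases, and reads were not divided by length.

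**Figure D1:**
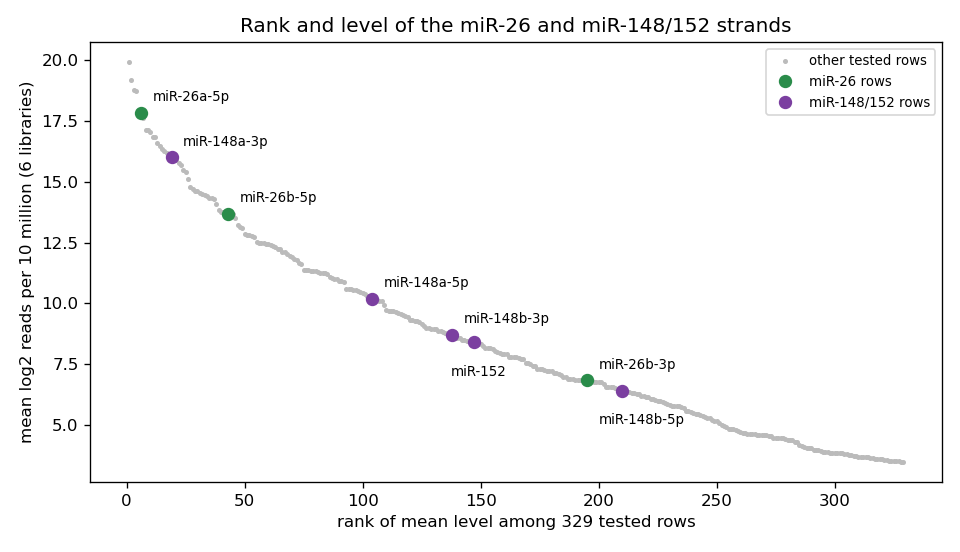
Mean log2 reads per 10000000 over the 6 libraries (vertical axis) against the rank of that mean among the 329 tested rows (horizontal axis), with the miR-26 rows in green, the miR-148/miR-152 rows in purple and the other rows in grey. miR-26a-5p sits at rank 6 and miR-148a-3p at rank 19, while miR-152 lies at rank 147.

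In the order of these levels, all but 2 pairs of neighbours had ranges that did not overlap. miR-148b-3p lay above miR-152 in 4 of 6 libraries, with differences from −0.07 to 0.61 log2 units, so these neighbours did not differ beyond their spread. miR-26b-3p and miR-148b-5p overlapped in range, although miR-26b-3p was higher in 6 of 6 libraries. The smallest separation among the others was that of miR-148a-5p above miR-148b-3p, by 1.49 log2 units on average. miR-148a-5p, the passenger strand of its hairpin, thus had more reads than the guide strands of miR-148b and miR-152. How evenly strands of different sequence were captured in the libraries was not tested.

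Each seed group was held almost wholly by 1 member. miR-26a-5p made up 92.6% to 95.8% of the reads of the miR-26 guides and miR-26b-5p the remaining 4.21% to 7.38%. miR-148a-3p made up 98.5% to 99.2% of the reads of the miR-148/miR-152 guides, miR-148b-3p 0.397% to 0.886% and miR-152 0.416% to 0.658%. The highest share of miR-26b-5p was that of Wt replicate 2, the library with the epididymal and epithelial markers, and in the other 5 libraries its share lay between 4.21% and 5.66%. The part of those markers in the level of miR-26b-5p was not tested.

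The levels of the guide strands were then set side by side for the genotypes. miR-26a-5p had log2 values of 17.71, 17.81 and 17.83 in Wt replicates 1, 2 and 3 and of 17.77, 17.83 and 18.08 in Agt Tg replicates 1, 2 and 3. The groups overlapped, and Agt Tg replicate 3 was the highest. The log2 fold change, Agt Tg compared to Wt, was 0.11 (standard error 0.15, 95% interval −0.25 to 0.46, limma adjusted p = 0.759), so that a change of 1.38-fold upward or to 0.842 of the Wt level lies at the limits of the interval. It was 0.015 without Agt Tg replicate 3, 0.071 without Wt replicate 1 and 0.17 without Agt Tg replicate 1.

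miR-26b-5p, which shares the miR-26 seed, had log2 values of 13.45, 14.16 and 13.33 in Wt and 13.51, 13.65 and 14.02 in Agt Tg mice. The highest value was that of Wt replicate 2 and the next that of Agt Tg replicate 3. Its log2 fold change was 0.08 (standard error 0.27, 95% interval −0.56 to 0.72, limma adjusted p = 0.893). Without Wt replicate 2 it was 0.34, and its sign turned when the first or the third Wt library (−0.017 and −0.081) or Agt Tg replicate 3 (−0.067) was left out.

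miR-148a-3p, which is known to promote adipogenesis, had log2 values of 15.99, 15.90 and 15.66 in Wt and 16.03, 15.85 and 16.55 in Agt Tg mice. Agt Tg replicate 3 stood above the other 5 libraries, among which both genotypes mixed. The log2 fold change was 0.30 (standard error 0.22, 95% interval −0.22 to 0.82, limma adjusted p = 0.61), the largest of the 8 members, and it was 0.10 without Agt Tg replicate 3.

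miR-148b-3p had log2 values of 9.0, 8.64 and 8.86 in Wt and 8.61, 8.58 and 8.58 in Agt Tg mice. It was the only member with groups that did not overlap on the deposited scale, lower in 3 of 3 Agt Tg libraries, while 17.6% of the 329 rows did not overlap in either direction and 10.6% did so with Agt Tg lower. The gap between the groups was small, and the log2 fold change was −0.24 (standard error 0.23, 95% interval −0.78 to 0.30, limma adjusted p = 0.671). It was −0.16 without Wt replicate 1. The summed level of 4 leukocyte miRNAs (miR-142-5p, miR-142-3p, miR-150-5p and miR-223-3p) was also lower in 3 of 3 Agt Tg libraries. It was 2828 to 3860 CPM there, compared to 4064 to 4207 in Wt. Taken singly, 1 of 4 (miR-150-5p) had groups that did not overlap, and those of miR-142-5p, miR-142-3p and miR-223-3p overlapped. Of these miRNAs, 0 of 4 had an unadjusted limma p no higher than 0.05, compared to 9.12% of all rows. The log2 fold change was negative for 4 of 4. Negative values were common, as only 32.5% of the 329 rows had a log2 fold change above 0. Among the other cell and tissue markers, 4 of 4 erythroid, 2 of 2 endothelial and 2 of 3 adipocyte miRNAs were above 0. Those of epididymis and epithelium (0 of 7) and of muscle (0 of 1) were not. The part of any of these markers in the values of miR-148b-3p was not tested.

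miR-152, listed without a strand and taken here as the 3′ guide, had log2 values of 8.38, 8.26 and 8.29 in Wt and 8.24, 8.62 and 8.65 in Agt Tg mice. Agt Tg replicates 2 and 3 were above all Wt libraries and Agt Tg replicate 1 below them. Its log2 fold change was 0.19 (standard error 0.24, 95% interval −0.38 to 0.76, limma adjusted p = 0.732). It was 0.32 without Agt Tg replicate 1 and 0.12 without Agt Tg replicate 3.

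**Figure D2:**
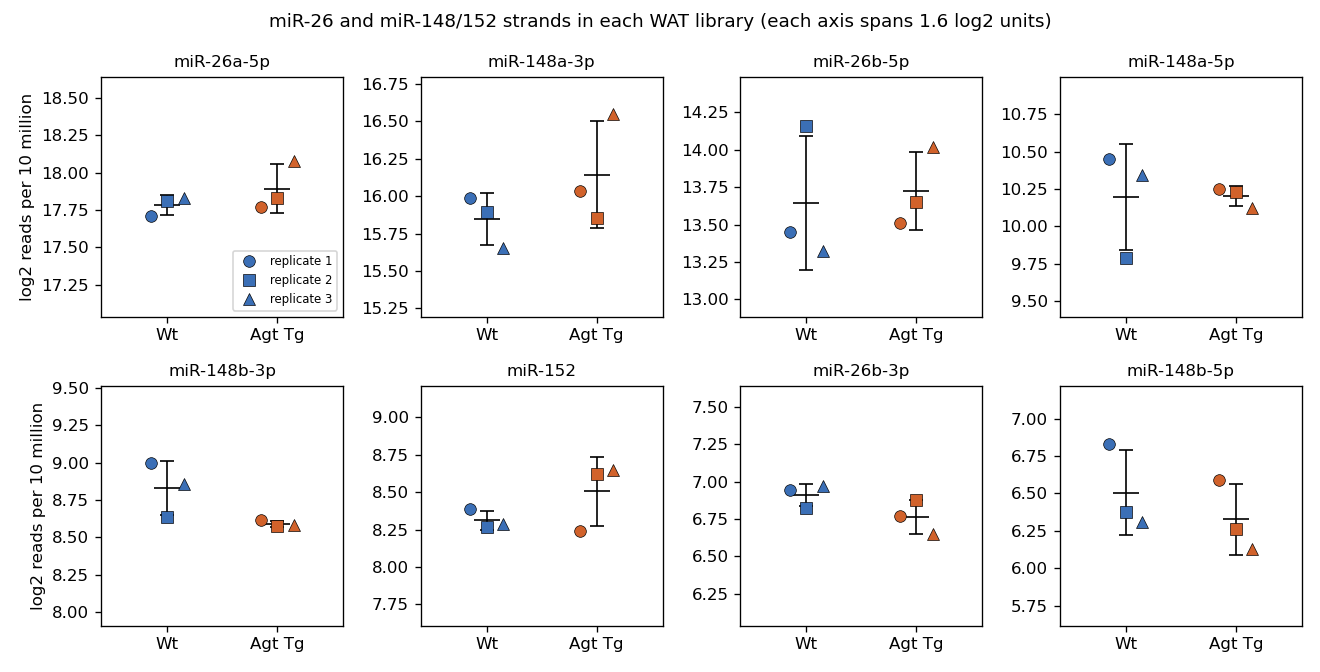
Log2 reads per 10000000 (vertical axes, each spanning the same number of log2 units around its own mean) of the 8 described strands in each Wt (blue) and Agt Tg (orange) library, with symbols for the replicate number and black bars for the group mean ± SD (n = 3). The groups overlap in 7 panels and are apart in that of miR-148b-3p, and Agt Tg replicate 3 is the highest library in the panels of miR-26a-5p, miR-148a-3p and miR-152.

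Of the 8 members, 0 reached the threshold, an unadjusted p no higher than 0.05 together with a difference of 2-fold or more, which 4.86% of the 329 rows reached (16 rows). Of all rows 2.74% reached it with Agt Tg higher (9) and 2.13% with Agt Tg lower (7). At an unadjusted p alone the count was 0 of 8 members and 9.12% of all rows, 4.56% in each direction. limma left 0 rows at an adjusted p under 0.05, with 30 at an unadjusted p no higher than 0.05, and limma-voom likewise left 0. The count of 16 was 35 without Agt Tg replicate 1, and the 30 were 53 without Agt Tg replicate 1, 48 without Wt replicate 2, 18 without Agt Tg replicate 3 and 16 without Wt replicate 1. In all of these settings 0 members were called. The 95% intervals of all 8 members, not adjusted for the number of rows, lay between −0.88 and 0.82, so that a difference of 1 log2 unit was outside each of them.

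The median log2 fold change was 0.04 over the 8 members and −0.19 over the 329 rows, and 5 of 8 members were above 0 compared to 32.5% of all rows. Relative to the median of all rows, the differences of the guide strands were 0.48 for miR-148a-3p, 0.38 for miR-152, 0.29 for miR-26a-5p, 0.27 for miR-26b-5p and −0.05 for miR-148b-3p. With TMM factors, which scale the libraries to the bulk of the miRNAs, the median of all rows moved to −0.06 and the rows at the threshold were 10 higher and 5 lower. The log2 fold changes of miR-148a-3p and miR-26a-5p were then 0.42 and 0.23 (limma unadjusted p = 0.110 and 0.246). Those of miR-152 and miR-26b-5p were 0.32 and 0.20. That of miR-148b-3p was −0.12 (limma unadjusted p = 0.609), compared to −0.24 on the deposited values.

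Which member had groups apart depended on the scaling. It was miR-148b-3p on the deposited values. When each library was scaled to its reads on listed miRNAs it was miR-26a-5p, at 3.96%, 4.16% and 4.08% of those reads in Wt and 4.18%, 4.50% and 5.04% in Agt Tg replicates 1, 2 and 3. The closest values, 4.16% and 4.18%, were nearly equal. With TMM factors it was miR-148a-3p, and relative to miR-191-5p, the reference miRNA of the RT-qPCR in the study, it was none. The shares of all rows without overlap were 13.7%, 14.9% and 13.4% in these settings.

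**Figure D3:**
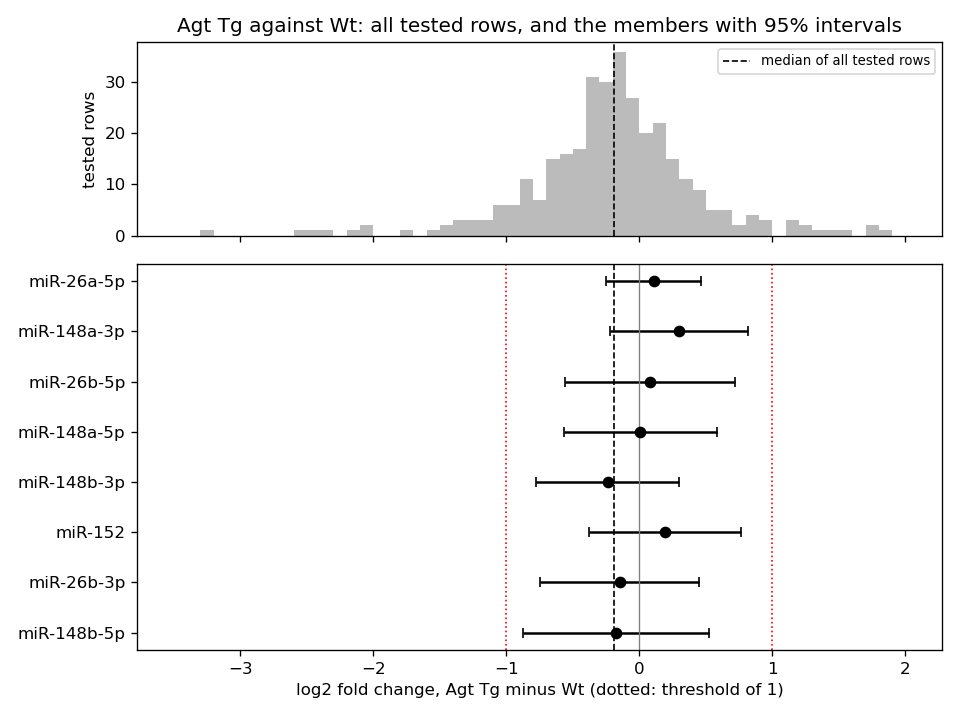
Distribution of the log2 fold change, Agt Tg minus Wt, over the 329 tested rows (upper panel, number of rows) and the values of the 8 members with their limma 95% intervals (lower panel, points and bars). The dashed line marks the median of all rows, −0.19, and each of the 8 intervals includes 0 and lies within the dotted lines at −1 and 1.

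The summed guide strands of each seed group were compared too. The log2 level of the miR-26 guides was 17.87 ± 0.07 in Wt and 17.97 ± 0.17 in Agt Tg mice (SD, n = 3), a difference of 0.10 (exact permutation test, two-sided, p = 0.5, adjusted p = 0.5). That of the miR-148/miR-152 guides was 15.87 ± 0.17 in Wt and 16.16 ± 0.36 in Agt Tg mice (SD, n = 3), a difference of 0.29 (exact permutation test, p = 0.4, adjusted p = 0.5). With 3 mice against 3 the exact permutation test cannot go below p = 0.1, so no single value could reach 0.05. Without Agt Tg replicate 3 the differences were 0.01 and 0.09.

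The passenger strands were then set beside the guides of their hairpins. Those of miR-26a are printed because they differ between the genes that give the same guide, and so are the only strands that could tell them apart. Both are from RefSeq (GRCm38.p6), at chr9:119031850-119031871 and chr10:126995581-126995602 (plus strands), with the seed in capitals.
miR-26a-1-3p: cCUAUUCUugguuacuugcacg
miR-26a-2-3p: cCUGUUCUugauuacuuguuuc

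They differed by A4G, G11A, C19U, A20U, C21U and G22C. miR-26a-1-3p was above the floor in 1 of 6 libraries, with 11 reads in Agt Tg replicate 3, and miR-26a-2-3p in 0 of 6. These 2 rows are the members that did not pass the filter, and each of the other 8 was above the floor in 6 of 6 libraries. A mouse passenger that differs from the human strand need not have been matched to its row, so that row would set no upper limit on the mouse strand. The human sequences were not compared here, so for which of these rows this holds was not tested. The table did not show how much of miR-26a-5p came from Mir26a-1 and how much from Mir26a-2.

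miR-26b-3p, the passenger of miR-26b, had log2 values of 6.94, 6.83 and 6.97 in Wt and 6.77, 6.88 and 6.65 in Agt Tg mice, from 75 to 123 reads. It had the third lowest SD over the 6 libraries among the 329 rows, 0.12, where counting error alone would give 0.15. Under TMM scaling its SD ranked 2. Its log2 fold change was −0.15, with a 95% interval of −0.75 to 0.45 (limma adjusted p = 0.792), and −0.091 without Agt Tg replicate 3. miR-26a-5p had the fourth lowest SD on the deposited values and ranked 38 under TMM scaling, so its low spread depended on the scaling. The SD of miR-191-5p on the deposited values was 0.29, compared to 0.13 for miR-26a-5p.

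miR-148a-5p had log2 values of 10.45, 9.79 and 10.34 in Wt and 10.25, 10.23 and 10.13 in Agt Tg mice. Its lowest value was that of Wt replicate 2. The log2 fold change was 0.0079, with a 95% interval of −0.57 to 0.58 (limma adjusted p = 0.984), and −0.19 without Wt replicate 2. miR-148b-5p, with 49 to 100 reads, had log2 values of 6.83, 6.37 and 6.31 in Wt and 6.59, 6.26 and 6.13 in Agt Tg mice, with overlapping groups and a log2 fold change of −0.18, with a 95% interval of −0.88 to 0.52 (limma adjusted p = 0.792). That difference was −0.015 without Wt replicate 1, −0.31 without Agt Tg replicate 1 and −0.078 without Agt Tg replicate 3.

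The ratio of both strands within a library does not depend on how libraries are scaled. It can depend on how fully each mouse strand was matched to its human-named row, which was not tested. The guide of miR-26b exceeded its passenger by 82.0-fold to 165-fold and that of miR-148a by 39.8-fold to 85.6-fold, whereas that of miR-148b did so by only 4.06-fold to 5.85-fold. The passenger strand made up 0.601% to 1.21% of the miR-26b reads, 1.16% to 2.45% of the miR-148a reads and 14.6% to 19.8% of the miR-148b reads. In 6 of 6 libraries the order was the same, with the ranges of miR-148b far from the others.

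For miR-26b the log2 ratio of guide to passenger was 6.51, 7.33 and 6.36 in Wt and 6.74, 6.77 and 7.37 in Agt Tg mice. It was high in Wt replicate 2 and in Agt Tg replicate 3, and the difference of 0.23 between genotypes did not exceed the spread (exact permutation test, p = 0.5, adjusted p = 0.75). For miR-148a the log2 ratio was 5.54, 6.11 and 5.32 in Wt and 5.78, 5.62 and 6.42 in Agt Tg mice, with the same libraries high (difference 0.29, exact permutation test, p = 0.5, adjusted p = 0.75). Without Wt replicate 2 the differences were 0.53 for miR-26b and 0.52 for miR-148a, and without Agt Tg replicate 3 they were 0.024 and 0.050. For miR-148b it was 2.17, 2.26 and 2.55 in Wt and 2.02, 2.32 and 2.45 in Agt Tg mice (difference −0.06, exact permutation test, p = 0.8, adjusted p = 0.8). Over the 6 libraries, Pearson's r between the log2 levels of guide and passenger was −0.65 for miR-26b, −0.15 for miR-148a and 0.66 for miR-148b. These are descriptions over 6 points that share library totals and genotype.

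Of the 5 log2 ratios compared between guide strands, those with miR-148b-3p below the line had groups that did not overlap. Among single rows on the deposited values, 17.6% of the 329 did not overlap either. The log2 ratio of miR-148a-3p to miR-148b-3p was 6.99, 7.26 and 6.80 in Wt and 7.42, 7.28 and 7.96 in Agt Tg mice. All Agt Tg values were above all Wt values, by a mean of 0.54, with the closest, Agt Tg replicate 2 and Wt replicate 2, at nearly the same level (exact permutation test, p = 0.1, the smallest possible, adjusted p = 0.25 over 5 ratios). Without Agt Tg replicate 3 the difference was 0.33. The log2 ratio of miR-152 to miR-148b-3p was −0.61, −0.37 and −0.57 in Wt and −0.37, 0.05 and 0.07 in Agt Tg mice. The mean difference was 0.43 (exact permutation test, p = 0.1, adjusted p = 0.25), with Wt replicate 2 and Agt Tg replicate 1 again almost equal. Both ratios share miR-148b-3p, which was itself apart on the deposited values, and are not independent of that or of each other. How often ratios between other rows separate the genotypes was not counted, so no share of all ratios can be set beside these.

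The other ratios overlapped. The log2 ratio of miR-148a-3p to miR-152 was 7.53 ± 0.14 in Wt and 7.64 ± 0.36 in Agt Tg mice (SD, n = 3; exact permutation test, p = 0.6, adjusted p = 0.75). That of miR-26a-5p to miR-26b-5p was 4.14 ± 0.44 and 4.17 ± 0.10 (SD, n = 3; exact permutation test, p = 0.9, adjusted p = 0.9), that is 12.5-fold to 22.7-fold over single libraries. The summed miR-26 guides exceeded the summed miR-148/miR-152 guides by 3.04-fold to 4.65-fold, and the log2 ratio was 2.0 ± 0.22 in Wt and 1.81 ± 0.22 in Agt Tg mice (SD, n = 3; exact permutation test, p = 0.5, adjusted p = 0.75).

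**Figure D4:**
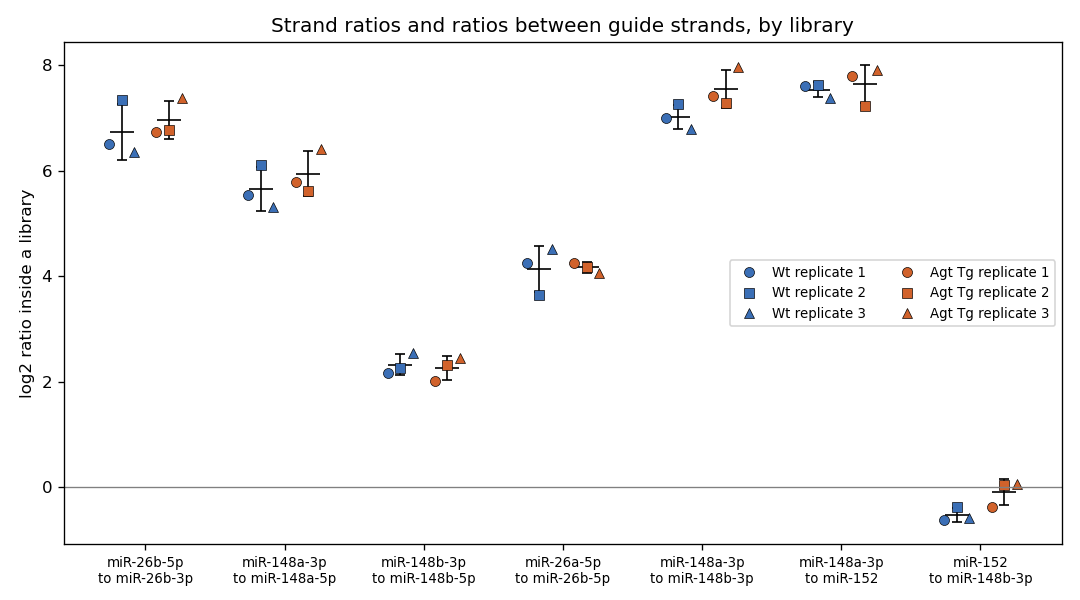
Log2 ratios inside a library (vertical axis) of guide to passenger strand for miR-26b, miR-148a and miR-148b and between guide strands of a seed group, by Wt (blue) and Agt Tg (orange) library, with symbols for the replicate number and black bars for the mean ± SD (n = 3). The genotypes are apart only in the ratios of miR-148a-3p and miR-152 to miR-148b-3p, with means of 7.02 and 7.55 for the first and −0.52 and −0.09 for the second. In both, the closest Wt and Agt Tg libraries are nearly equal.

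Among the 262 other rows above the floor in all libraries, the log2 levels most like those of miR-26a-5p over the 6 libraries were miR-190a (Pearson's r = 0.95), miR-143-3p (0.93) and miR-30a-3p (0.92). miR-143-3p is known for promoting adipocyte differentiation and is abundant in smooth muscle. Those most like miR-148a-3p were miR-450a-5p (0.99), miR-126-5p (0.94), which is known from endothelium, and miR-940 (0.91). With 6 points and 262 rows searched, these values describe the libraries only. miR-26a-5p and miR-148a-3p had r = 0.72 with each other, and both had their highest value in Agt Tg replicate 3.

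Other miRNAs reported to act on adipocyte differentiation were set beside the members. Of 13 reported to promote it, 13 were tested and 0 had an unadjusted p no higher than 0.05, compared to 9.12% of all rows. In lists this short, a count of 0 does not set them apart from all rows. Their median log2 fold change was −0.24, compared to −0.19 over all rows, and 1 of 13 was above 0, compared to 32.5% of all rows. The most abundant were miR-143-3p (0.22, 95% interval −0.19 to 0.64), miR-30a-5p (−0.12, −0.64 to 0.41), miR-30d-5p (−0.34, −0.77 to 0.10) and miR-21-5p (−0.25, −0.92 to 0.42). Of 22 reported to restrain it, 19 were tested, and 3 (miR-155-5p, miR-224-5p and miR-448) were at the floor in all libraries. Of the 19, 0 had an unadjusted p no higher than 0.05 and 9 were above 0, with a median log2 fold change of −0.03. The most abundant of these were let-7f-5p (0.04), let-7c (−0.03), let-7a-5p (0.08) and miR-27b-3p (0.08), whose 95% intervals all include 0.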

How the data were processed

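Small RNA libraries of epididymal WAT from 3 Wt and 3 Agt Tg mice were used, with genotype and replicate from the sample labels. The authors mapped reads to the mouse genome and to miRBase precursors, kept those on mature miRNAs and deposited log2 values in 1 table. For the mapping, neither a miRBase release nor an allowance for mismatches is given in the sources read. The scale was worked out from the values: 1924 of 1924 values above the floor were whole reads within 0.02 reads. No column lacked a sample (0).

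limma 3.58.1 in R 4.3.3 was applied to the log2 values as deposited, for the 329 rows with 3 or more libraries above the floor, with a variance trend, genotype as the sole factor and Benjamini-Hochberg adjustment over the 329. The planned use of log2 values needed no pseudocount. Sums and ratios were compared with two-sided exact permutation tests (SciPy 1.17.1). The limma script was tested on simulated data. Each library has an identifier of its own in the labels and was taken as 1 mouse. If replicates shared a mouse, p-values would measure technical spread only. In a chi-square comparison no pair of libraries agreed within sampling noise. Separate libraries of 1 mouse could exceed that noise too, so the comparison cannot tell whether replicates shared a mouse. Epididymis, erythroid, leukocyte, endothelial, muscle and adipocyte miRNAs served as markers. Erythroid, endothelial, muscle and adipocyte lists had 0 called rows, with median log2 fold changes of 0.34, 0.23, −0.51 (1 tested row) and 0.04, and the epididymal and epithelial list had 1 of 7 called (4.86% of all rows) and a median of −2.39, with a summed level of 13857 CPM in Wt replicate 2 and of 104 to 173 CPM in the other libraries of both genotypes.

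The members and lists were chosen with earlier results of these data known. Named rows were the members, the 3 rows most correlated with miR-26a-5p and with miR-148a-3p, miR-191-5p, the most abundant row, and the most abundant members of each list; the markers at the floor and those of leukocytes were named after their values were seen. Alternatives were log2(CPM + 1), limma-voom with TMM, TMM factors, no filter, a mean CPM of 10, values relative to miR-191-5p, a replicate block, no variance trend, leaving out each library and, chosen after the data were seen, scaling members to reads on listed miRNAs. Python 3.11.15 and matplotlib 3.10.9 were used for sequences and figures.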

Additional observations from a re-analysis of the deposited data

How the results depend on the processing

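No member was called under any alternative in which it was tested. The filter at a mean CPM of 10 removed miR-148b-5p, so that 7 of the 8 members were tested there. Among the values recomputed, 11 turned in sign and 8 counts moved by over 1.5 times. The count of all rows at the threshold, 16, was 7 on log2(CPM + 1) and 3 with a filter at a mean CPM of 10 (209 rows tested), and 12 to 35 with a library left out. The count at an unadjusted p alone, 30, was 15 with that filter and 16 to 53 with a library left out. With a library left out, the log2 fold change ranged from −0.081 to 0.34 for miR-26b-5p and from −0.19 to 0.14 for miR-148a-5p. The difference in log2 ratio ranged from −0.16 to 0.058 for miR-148b-3p to miR-148b-5p, from −0.22 to 0.21 for miR-26a-5p to miR-26b-5p and from −0.025 to 0.31 for miR-148a-3p to miR-152. Without turning in sign, it ranged from 0.024 to 0.53 for miR-26b-5p to miR-26b-3p, from 0.050 to 0.52 for miR-148a-3p to miR-148a-5p, from 0.33 to 0.67 for miR-148a-3p to miR-148b-3p and from −0.30 to −0.081 for the summed miR-26 to the summed miR-148/miR-152 guides. The cause was not tested. The replicate block counted 17 rows at the threshold and 26 at an unadjusted p alone, with 0 members in either. Equal numbers were not taken to pair the mice. The deviations of same-numbered libraries correlated at 0.22, −0.18 and −0.21, and only those numbered 1 correlated best with their own number. With 3 libraries in each group these values cannot decide whether mice were paired. The strands with at most 123 reads (miR-26b-3p and miR-148b-5p) are limited by counting error.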
